A study of Mus musculus with 12 samples.

Results

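The genes described here are 9 of the genes through which Wnt signalling reports on and limits itself. They are the feedback targets Axin2, Nkd1, Nkd2, Rnf43 and Znrf3, and the 4 TCF/LEF transcription factors Lef1, Tcf7, Tcf7l1 and Tcf7l2. They are a list of names set with earlier results of these data known, and all 9 were found among the 54100 features listed in all 12 count files. In the Wnt pathway, a destruction complex of Axin, Apc and the kinases CK1α and Gsk3 marks beta-catenin for degradation. When a Wnt ligand engages a Frizzled receptor the complex is inhibited, beta-catenin accumulates, enters the nucleus and binds TCF/LEF factors on target genes. Because the feedback genes are themselves targets in many tissues, their transcripts are commonly read as a measure of beta-catenin activity.

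The study measured polyadenylated RNA in 12 mouse libraries, in 6 groups of 2, all with the genotype label C57BL/6J. SSTC3, a small molecule described as an activator of CK1α, was given to cells labelled TREX1-KO BMDM and TREX2-KO BMDM, and its DMSO vehicle to cells labelled TREX3-KO BMDM and TREX4-KO BMDM, so each of these libraries carries a knockout label of its own. Whether these labels name different knockouts or only number the libraries is not settled. BMDM stands for bone marrow-derived macrophages. Cells labelled MEF, mouse embryonic fibroblasts, carried CK1a overexpression (CK1a_OV) or its control (OV_control), and a separate pair of MEF groups had CK1a knockdown (CK1a_siRNA) or its control (knockdown_control). No dose, time, vector or siRNA sequence is given in the sources used here, and no label says whether replicates came from separate cultures. The p-values then speak only of how far the sequenced libraries vary, and that variation may be technical.

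Library totals ran from 16063627 to 19427506 counts. Csnk1a1, which encodes CK1α, had 172 and 169 CPM (counts scaled to a common library total) in CK1a_siRNA libraries, against 325 and 354 CPM in knockdown_control libraries, a log2 fold change of −0.96 ± 0.05 (SE, edgeR adjusted p = 2.88e-27). It had 229 and 244 CPM in CK1a_OV libraries, against 238 and 235 CPM in OV_control libraries, so the libraries labelled CK1a_OV held no higher transcript level (log2 fold change −0.01 ± 0.04, edgeR adjusted p = 0.901), and any direction of that comparison rests on its label. The libraries labelled BMDM went against their label in their markers. The 14 fibroblast markers summed to 9070 to 9200 CPM with SSTC3 and 10060 to 10400 CPM with DMSO. Most of that came from collagens, Fn1 and Vim, among them Col1a1 (2240 to 2860 CPM) and Vim (2530 to 2940 CPM). Some markers of the list were low, with Thy1 at 2.79 to 4.65, Dcn at 0.708 to 1.3, Fap at 0.059 to 0.293 and Lum at 0 to 0.117 CPM. Thy1 and Dcn were lower still in the MEF sets, at most 0.448 and 0.0596 CPM. In the libraries labelled BMDM the 21 macrophage markers summed to 22.53 to 23.14 CPM with SSTC3 and 14.49 to 14.95 CPM with DMSO. There the defining macrophage marker Adgre1 had 0 counts. In the MEF sets the fibroblast markers summed to 4603 to 4605 CPM (CK1a_OV), 5144 to 5202 CPM (OV_control), 4819 to 4932 CPM (CK1a_siRNA) and 4145 to 4222 CPM (knockdown_control). Macrophage markers summed to 588.4 to 595.7 CPM in CK1a_siRNA and 630.6 to 641.6 CPM in knockdown_control libraries, nearly all of it from Cd68 (246 to 296 CPM) and Cd74 (262 to 365 CPM), with Adgre1 at 0 to 0.158 CPM and C1qa at 0. They summed to at most 33.07 CPM in the other MEF set. Since Lef1 and Tcf7 are also T lymphocyte genes, T lymphocyte markers were read as well: Cd3d and Cd3e had 0 counts in every library. In bulk RNA, fewer cells of a type and less RNA per cell cannot be told apart.

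Promoter windows from RefSeq (build GRCm38.p6, 250 bases before to 50 after an annotated start) were found for 8 of the 9 genes, in 14 windows. They are shown for Axin2 and Lef1, the 2 genes with the largest rise with SSTC3. TCF/LEF factors bind a core written CTTTGA, searched on both strands (TCAAAG on the other), and a stricter form, CTTTGAT, that contains it. The Axin2 window is chr11:108920099-108920398 on the plus strand and holds no match, so it is all in lower case. The Lef1 window shown is chr3:131156044-131156343 on the plus strand, at the fourth of its annotated starts, with its 2 matches in capitals. This start lies inside the gene, which begins at 131110471. The windows at the other annotated starts of Lef1, among them those next to the beginning of the gene, hold no match and are not shown.
Axin2: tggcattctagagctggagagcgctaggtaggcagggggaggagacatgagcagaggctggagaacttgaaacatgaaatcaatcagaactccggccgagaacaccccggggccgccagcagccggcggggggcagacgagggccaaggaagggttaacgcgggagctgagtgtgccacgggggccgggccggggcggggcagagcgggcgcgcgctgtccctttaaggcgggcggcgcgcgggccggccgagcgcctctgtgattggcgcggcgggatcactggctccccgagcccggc
Lef1: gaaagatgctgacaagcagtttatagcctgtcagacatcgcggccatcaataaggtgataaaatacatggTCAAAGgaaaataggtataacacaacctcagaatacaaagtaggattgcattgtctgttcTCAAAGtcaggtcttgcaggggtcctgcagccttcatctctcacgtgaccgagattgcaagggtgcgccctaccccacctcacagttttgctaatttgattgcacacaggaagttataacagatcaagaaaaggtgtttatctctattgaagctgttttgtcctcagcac
This Lef1 window was the 1 window of the 14 that held CTTTGA, and none held CTTTGAT. Of all 32851 windows of the same length, 16.0% held CTTTGA at least once, 1.73% held it 2 or more times, and 3.73% held CTTTGAT. A match is a description of letters and not a measured site, and no match says only that these letters are not in that window.

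SSTC3 against DMSO asks what a CK1α activator does to these transcripts. As the 4 libraries carry different knockout labels, 2 in each group, the treatment and these labels cannot be told apart, and changes are given as those of the SSTC3 libraries. There Axin2 and Lef1 rose, 7.34-fold (from few counts) and 3.16-fold, and Nkd2 rose 1.52-fold, while Tcf7l1, Tcf7l2, Tcf7 and Znrf3 were 1.22-fold to 1.75-fold lower. The direction thus differed among the 9 genes, and even among the 4 TCF/LEF factors. Of the 9 genes, 7 had enough counts to be tested and all 7 were called at an adjusted p under 0.05 (edgeR quasi-likelihood test, Benjamini-Hochberg over all genes). This stands beside 53.6% of all 14151 genes called in that comparison, 27.1% higher and 26.5% lower. Axin2 passed the filter on low counts only through the SSTC3 libraries, so its place among the 7 is not independent of its rise.

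Axin2 (ENSMUSG00000000142, mm10 chromosome 11, 108920349 to 108950783, plus strand) encodes a scaffold of the destruction complex and is the most widely used direct target of beta-catenin. It had 1.0 and 1.59 CPM in SSTC3 libraries (17 and 27 counts), against 0.293 and 0.0594 CPM in DMSO libraries (5 and 1 counts). The groups did not overlap, and the log2 fold change was 2.88 ± 0.64 (SE, n = 2 per group, edgeR adjusted p = 3.52e-05). The size of this change rests on the few DMSO counts: it was 4.33 without DMSO replicate 1 and 2.17 without DMSO replicate 2, and the adjusted p was 0.0439 without SSTC3 replicate 2. The rise is large as a ratio and small as a level: the SSTC3 mean was 0.236 RPKM, a level per kilobase of exon, below 1 in every library.

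The 2 Naked cuticle proteins, which bind Dishevelled and dampen Wnt signalling, were seen in the SSTC3 set almost alone. Nkd2 (ENSMUSG00000021567, mm10 chromosome 13, 73818534 to 73847631, minus strand) had 23.0 and 24.6 CPM in SSTC3 libraries and 16.5 and 16.0 CPM in DMSO libraries. The groups were apart, with a log2 fold change of 0.60 ± 0.11 (edgeR adjusted p = 3.03e-07). Nkd1 (ENSMUSG00000031661, mm10 chromosome 8, 88521354 to 88594884, plus strand) had 6 and 10 counts with SSTC3 and 7 and 8 counts with DMSO, which overlap, and was too low to be tested. At this depth no difference in Nkd1 was detectable.

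Znrf3 and Rnf43 encode related membrane ubiquitin ligases that remove Frizzled receptors from the cell surface and are themselves restrained by R-spondin through Lgr receptors. Znrf3 (ENSMUSG00000041961, mm10 chromosome 11, 5276324 to 5444847, minus strand) had 24.9 and 22.8 CPM in SSTC3 libraries and 30.5 and 29.9 CPM in DMSO libraries, which do not overlap. Its log2 fold change was −0.28 ± 0.09 (edgeR adjusted p = 0.00672), and this call was lost with DESeq2 (adjusted p = 0.0774) and without SSTC3 replicate 2 (adjusted p = 0.0951). Rnf43 (ENSMUSG00000034177, mm10 chromosome 11, 87662722 to 87735539, plus strand) had 3 and 3 counts with SSTC3 and 0 and 2 counts with DMSO, at or under the 3 counts taken as the floor.

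Among the TCF/LEF factors, Lef1 and Tcf7 are the members that most often act with beta-catenin as activators, Tcf7l1 is known chiefly as a repressor, and Tcf7l2 can do either. Lef1 (ENSMUSG00000027985, mm10 chromosome 3, 131110471 to 131224356, plus strand) had 13.1 and 11.3 CPM in SSTC3 libraries, against 3.99 and 4.04 CPM in DMSO libraries. Every SSTC3 value was above every DMSO value, and the log2 fold change was 1.66 ± 0.17 (edgeR adjusted p = 1.11e-17). Tcf7l1 (ENSMUSG00000055799, mm10 chromosome 6, 72626378 to 72789254, minus strand) had 25.3 and 23.9 CPM with SSTC3 and 46.6 and 42.9 CPM with DMSO. It fell clear of the spread between libraries, by 0.81 ± 0.09 on the log2 scale (edgeR adjusted p = 2.5e-17). Tcf7l2 (ENSMUSG00000024985, mm10 chromosome 19, 55741820 to 55933654, plus strand) had 21.2 and 23.2 CPM with SSTC3 and 30.4 and 32.4 CPM with DMSO. It was lower in both SSTC3 libraries, with a log2 fold change of −0.44 ± 0.09 (edgeR adjusted p = 1.93e-05).

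Tcf7 (ENSMUSG00000000782, mm10 chromosome 11, 52252371 to 52283014, minus strand) had 12.6 and 15.2 CPM with SSTC3 and 16.7 and 21.4 CPM with DMSO. Its groups did not overlap but lay close, and the log2 fold change of −0.40 ± 0.12 (edgeR adjusted p = 0.00262) is the least steady of the 4. The call was lost with DESeq2 (adjusted p = 0.0809), without SSTC3 replicate 1 (adjusted p = 0.164) and without DMSO replicate 2 (adjusted p = 0.244). Markers of other cell types also differed between these groups. Epithelial and keratinocyte markers summed to 7.609 to 8.126 CPM with SSTC3 and 3.46 to 3.622 CPM with DMSO, with 1 to 2 of 12 at 0 with SSTC3 and 6 to 7 of 12 at 0 with DMSO. The largest part came from Krt19 (2.43 to 5.12 CPM over both groups). T lymphocyte markers summed to 2.654 to 3.062 CPM with SSTC3 and 4.75 to 5.102 CPM with DMSO, with 7 to 8 of 12 at 0 with SSTC3 and 9 of 12 at 0 with DMSO. Most of that sum came from Lck (1.06 to 1.88 CPM) and Bcl11b (0.824 to 3.34 CPM over both groups). Cd3d, Cd3e and Cd3g were at 0, so the sum does not show that T lymphocytes were present. The part of these markers in the changes of Lef1 and Tcf7 was not tested.

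**Figure D1:**
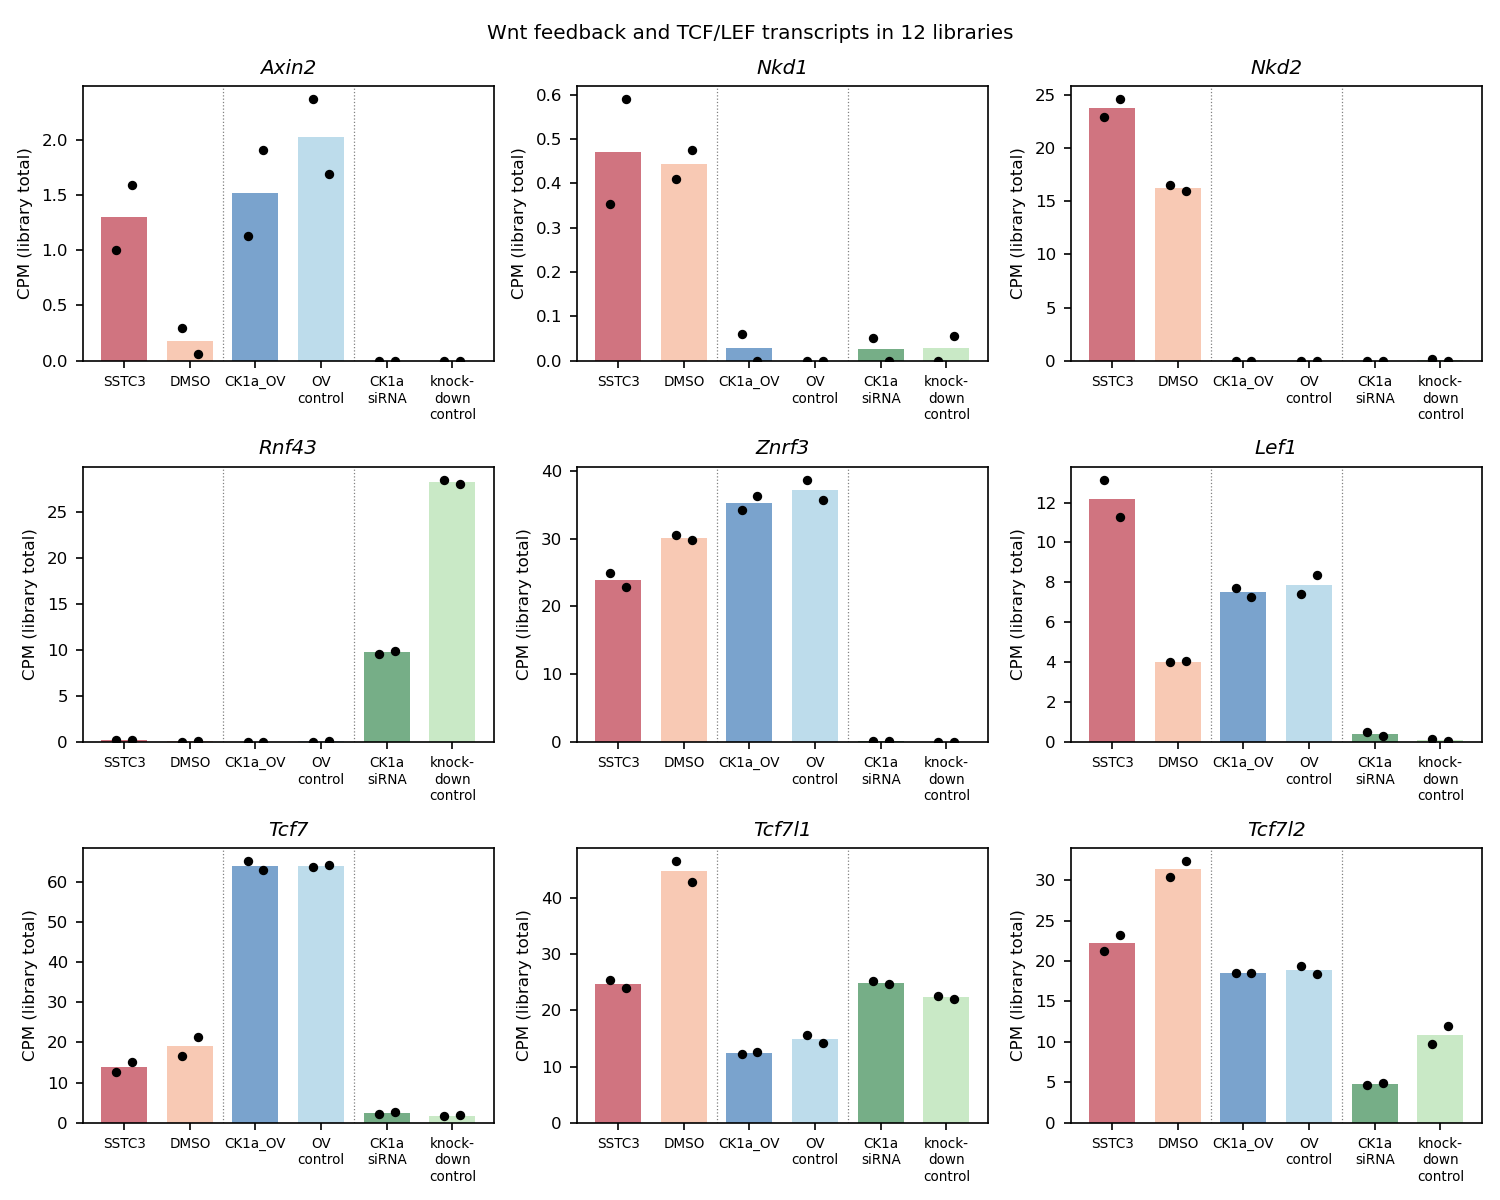
Level of each of the 9 genes in CPM of the library total (vertical axis, linear, from 0, scaled per gene) in the 6 groups. Bars are the means of 2 libraries and points the libraries. Lef1 is at 13.1 and 11.3 CPM with SSTC3 against 3.99 and 4.04 CPM with DMSO, Rnf43 appears in the knockdown set, and Znrf3 and Nkd2 do not appear there.

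CK1a_OV against OV_control asks what the labelled overexpression of CK1α does in MEF. No change of these genes passed the test: 6 of the 9 had enough counts, 0 were called by edgeR at an adjusted p under 0.05, and 1 had an unadjusted edgeR p under 0.05. DESeq2 gave an adjusted p for 2 of these 6, Tcf7 (0.99) and Znrf3 (0.809), and called neither. Of all 13958 genes, 13.3% were called, 5.78% higher and 7.57% lower. The 1 gene with a small unadjusted p was Tcf7l1, with 12.3 and 12.6 CPM in CK1a_OV libraries and 15.6 and 14.1 CPM in OV_control libraries. Its groups did not overlap, and its log2 fold change was −0.27 ± 0.13 (edgeR adjusted p = 0.178).

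Axin2 was detected in all 4 libraries of this set, at 1.13 and 1.91 CPM in CK1a_OV and 2.37 and 1.69 CPM in OV_control. These values overlap, and the log2 fold change of −0.43 ± 0.37 did not pass (edgeR adjusted p = 0.508). Tcf7 had the highest level per exon length of the 9 here, with means of 24.4 RPKM in CK1a_OV and 24.3 RPKM in OV_control, or 65.1 and 62.9 CPM in CK1a_OV and 63.5 and 64.1 CPM in OV_control. Its log2 fold change was −0.01 ± 0.06 (edgeR adjusted p = 0.944), and its sign depended on the scaling. Lef1 had 7.73 and 7.27 CPM in CK1a_OV and 7.39 and 8.37 CPM in OV_control, which overlap (log2 fold change −0.08 ± 0.17, edgeR adjusted p = 0.809).

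Tcf7l2 had 18.5 and 18.5 CPM in CK1a_OV and 19.3 and 18.4 CPM in OV_control (log2 fold change −0.04 ± 0.11, edgeR adjusted p = 0.862). Znrf3 had 34.3 and 36.3 CPM in CK1a_OV and 38.7 and 35.8 CPM in OV_control (log2 fold change −0.09 ± 0.08, edgeR adjusted p = 0.546). Neither was apart from its control. The other 3 were close to absent: Nkd2 had 0 counts in all 4 libraries, Nkd1 had 1 and 0 counts in CK1a_OV and 0 and 0 in OV_control, and Rnf43 had 0 and 0 counts in CK1a_OV and 0 and 2 in OV_control.

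CK1a_siRNA against knockdown_control is the comparison in which the Csnk1a1 transcript fell. Here Rnf43 fell 2.84-fold and Tcf7l2 2.22-fold, Tcf7 and Tcf7l1 did not pass the test, and the other 5 genes were too low to be tested. The 2 calls among 4 tested genes stand beside 54.7% of all 14832 genes called, 28.3% higher and 26.4% lower. Axin2 had 0 counts in all 4 libraries, where 3 counts, the floor of a 0, amount to 0.154 to 0.187 CPM. A fall of Axin2 could therefore not be read in this set, and a rise above this floor was not seen.

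Rnf43 had 9.57 and 9.83 CPM in CK1a_siRNA libraries (186 and 187 counts), against 28.4 and 28.0 CPM in knockdown_control libraries (457 and 500 counts). The groups were far apart relative to the spread within them, with a log2 fold change of −1.50 ± 0.12 (edgeR adjusted p = 1.84e-17). Tcf7l2 had 4.68 and 4.89 CPM in CK1a_siRNA and 9.71 and 12 CPM in knockdown_control. It was lower in both CK1a_siRNA libraries (log2 fold change −1.15 ± 0.18, edgeR adjusted p = 7.65e-08). Markers of cell types moved both ways here. Of 10 tested fibroblast markers 2 rose and 4 fell, and of 6 tested macrophage markers 2 rose and 2 fell. Over all 14 listed fibroblast markers the median level was 43.11 and 40.88 CPM in CK1a_siRNA and 56.81 and 57.56 CPM in knockdown_control libraries. The sum of the 14 went the other way, at 4819 to 4932 CPM in CK1a_siRNA and 4145 to 4222 CPM in knockdown_control. The part of these markers in the changes of Rnf43 and Tcf7l2 was not tested.

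Tcf7l1 had 25.2 and 24.6 CPM in CK1a_siRNA and 22.6 and 22.1 CPM in knockdown_control (log2 fold change 0.19 ± 0.10, edgeR adjusted p = 0.108). Tcf7 had 2.26 and 2.73 CPM in CK1a_siRNA and 1.68 and 1.85 CPM in knockdown_control (log2 fold change 0.53 ± 0.33, edgeR adjusted p = 0.172). In both genes the groups did not overlap, but the difference did not pass the test. Lef1 had 9 and 5 counts in CK1a_siRNA and 2 and 1 counts in knockdown_control, below the filter. In the edgeR fit of all 12 libraries it had a log2 fold change of 1.96 ± 0.82 (adjusted p = 0.0421), and with no filter on the 4 libraries the adjusted p was 0.242. Nkd1 had 1 and 0 counts in CK1a_siRNA and 0 and 1 in knockdown_control, Nkd2 0 and 0 in CK1a_siRNA and 2 and 0 in knockdown_control, and Znrf3 1 and 1 in CK1a_siRNA and 0 and 0 in knockdown_control.

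**Figure D2:**
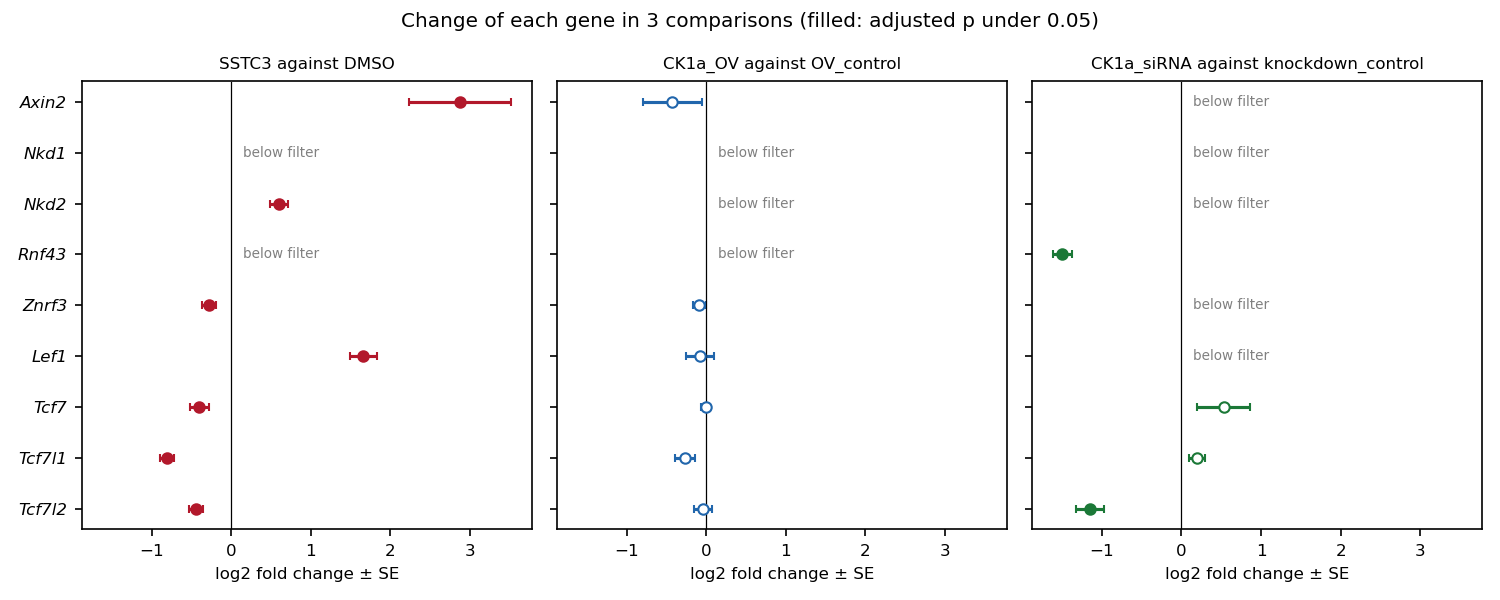
Log2 fold change with its SE (horizontal axis) of each gene in the 3 comparisons, from edgeR. Filled points have an adjusted p under 0.05, open points do not, and genes with too few counts are marked as below the filter. With SSTC3 the points run from −0.81 for Tcf7l1 to 2.88 for Axin2, all 6 points of CK1a_OV are open, and Rnf43 (−1.50) and Tcf7l2 (−1.15) are filled for CK1a_siRNA.

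The effects of the comparisons, which share no library, were set against each other as contrasts in 1 edgeR model that took in all 12 libraries. Such a difference can be read for genes with at least 1 CPM in a group of both sets, a limit set after the data were seen. Between SSTC3 and CK1a_OV, 5 of the 6 genes that meet it differed, beside 32.7% of all 17105 genes (17.2% higher and 15.5% lower). The effect of SSTC3 was higher for Axin2, by 3.30 ± 0.83 on the log2 scale (edgeR adjusted p = 0.000918), and for Lef1, by 1.74 ± 0.28 (edgeR adjusted p = 2e-07). Axin2 met the limit in the SSTC3 set only through the SSTC3 group, where it is high, so its place among the 5 is not independent of its rise. Its difference was 4.76 without DMSO replicate 1 and 2.59 without DMSO replicate 2. The effect of SSTC3 was lower for Tcf7l1 (−0.54 ± 0.15, edgeR adjusted p = 0.0027). The differences for Tcf7 (−0.39 ± 0.14, edgeR adjusted p = 0.0262) and Tcf7l2 (−0.40 ± 0.16, edgeR adjusted p = 0.0398) were lost with DESeq2 (adjusted p = 0.138 and 0.151), and that for Znrf3 did not pass (−0.20 ± 0.14, edgeR adjusted p = 0.305).

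Between SSTC3 and CK1a_siRNA the 3 genes that meet the limit all differed, beside 45.1% of all genes (23.5% higher and 21.6% lower). Tcf7l1 differed most clearly: it fell by 0.81 with SSTC3 and was 0.19 higher, short of the threshold, in CK1a_siRNA, a difference of −0.97 ± 0.14 (edgeR adjusted p = 2.74e-09). The difference for Tcf7 was −0.90 ± 0.27 (edgeR adjusted p = 0.00455; 0.0516 without CK1a_siRNA replicate 2). Tcf7l2 was lower in both comparisons and less so with SSTC3, by 0.74 ± 0.19 (edgeR adjusted p = 0.000592). Rnf43 also passed in this fit (3.06 ± 1.11, edgeR adjusted p = 0.0185), but it had 0 to 3 counts per library in the SSTC3 set, so this value cannot be read as a difference of 2 measured effects.

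Between CK1a_siRNA and CK1a_OV, 2 of the 3 genes that meet the limit differed, beside 35.1% of all genes (18.3% higher and 16.8% lower). The effect of CK1a_siRNA was lower for Tcf7l2 (−1.14 ± 0.19, edgeR adjusted p = 4.75e-07) and higher for Tcf7l1 (0.43 ± 0.15, edgeR adjusted p = 0.0227). For Tcf7l1 this call was lost with DESeq2 (adjusted p = 0.104). The difference for Tcf7 did not pass (0.51 ± 0.26, edgeR adjusted p = 0.135). Lef1 was not compared there, as it stayed under 1 CPM in both groups of the knockdown set.

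Across the 6 groups the 3 cell sets expressed different members of this gene group. These levels are described without a test, since the cell set and any difference in how each set was processed cannot be told apart. The count files of CK1a_OV and OV_control list 55401 features and those of the other groups 54532, so the sets were not counted against the same list of features. Axin2 had its highest mean in OV_control (2.03 CPM), followed by CK1a_OV (1.52 CPM) and SSTC3 (1.3 CPM), whose libraries overlap with their neighbours in this order, then DMSO (0.176 CPM), which was apart from them, and both groups of the knockdown set at 0 counts. Against the floor of 3 counts in a library, OV_control was at least 10.8-fold higher than knockdown_control. Nkd2 was highest in SSTC3 (23.8 CPM) and then DMSO (16.3 CPM), apart from each other, and had at most 2 counts in any library of the other 4 groups. The SSTC3 level was at least 133-fold higher than that of CK1a_OV.

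Znrf3 and Rnf43 were present in different cell sets. Znrf3 had means of 37.2 CPM in OV_control and 35.3 CPM in CK1a_OV, which overlap, then 30.2 CPM in DMSO and 23.9 CPM in SSTC3, each apart from the one before, and at most 1 count in a library of the knockdown set. Rnf43 ran the other way, with 28.2 CPM in knockdown_control and 9.7 CPM in CK1a_siRNA and at most 3 counts in any other library. Per exon length, Znrf3 made up 99.1% to 100% of the summed RPKM of the pair in each of the 8 libraries of the SSTC3 and overexpression sets, and Rnf43 at least 99.6% in each of the 4 libraries of the knockdown set. The summed RPKM of the pair was 3.05 ± 0.184 in SSTC3, 3.83 ± 0.0424 in DMSO, 4.48 ± 0.184 in CK1a_OV, 4.72 ± 0.247 in OV_control, 1.49 ± 0.0283 in CK1a_siRNA and 4.30 ± 0.0495 in knockdown_control (SD, n = 2). CK1a_siRNA had the lowest of these sums, and the 2 MEF controls had sums of 4.72 and 4.30 RPKM from different genes.

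Lef1 was highest in SSTC3 (12.2 CPM), apart from OV_control (7.88 CPM) and CK1a_OV (7.5 CPM), which overlap, and DMSO (4.01 CPM), with the knockdown set lowest at 0.363 CPM in CK1a_siRNA and 0.0903 CPM in knockdown_control. Tcf7 was highest in the overexpression set, at 64.0 CPM in CK1a_OV and 63.8 CPM in OV_control, which overlap. It was lower and apart in DMSO (19.0 CPM), SSTC3 (13.9 CPM), CK1a_siRNA (2.5 CPM) and knockdown_control (1.77 CPM). Tcf7l1 was highest in DMSO (44.7 CPM), then CK1a_siRNA (24.9 CPM) and SSTC3 (24.6 CPM), which overlap, knockdown_control (22.3 CPM), OV_control (14.9 CPM) and CK1a_OV (12.5 CPM). Tcf7l2 ran from 31.4 CPM in DMSO and 22.2 CPM in SSTC3, through 18.9 CPM in OV_control and 18.5 CPM in CK1a_OV, which overlap, to 10.9 CPM in knockdown_control and 4.79 CPM in CK1a_siRNA.

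Set per exon length, the 4 TCF/LEF factors had different leading members in the 3 cell sets. Tcf7 made up 79.8% ± 0.495 of their summed RPKM in CK1a_OV and 78.0% ± 0.778 in OV_control (SD, n = 2). Tcf7l1 made up 80.5% ± 1.56 in CK1a_siRNA and 74.8% ± 2.55 in knockdown_control. In the SSTC3 set the 2 were nearer to each other, with Tcf7l1 at 40.6% ± 2.83 in SSTC3 and 50.4% ± 4.60 in DMSO, and Tcf7 at 34.1% ± 3.46 in SSTC3 and 31.9% ± 4.53 in DMSO.

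The sum itself was lower with SSTC3, at 15.2 and 15.8 RPKM, against 22.1 and 23.2 RPKM with DMSO. Lef1 supplied 9.85% and 8.10% of it in SSTC3 libraries and 2.05% and 1.98% in DMSO libraries, so its share was higher in both while the sum was lower in both. In the knockdown comparison the sum was 7.88 and 7.90 RPKM in CK1a_siRNA and 7.52 and 7.70 RPKM in knockdown_control. There the Tcf7l2 share was 6.92% ± 0.191 in CK1a_siRNA and 16.2% ± 2.12 in knockdown_control. In the overexpression comparison the sums were 30.9 and 30.1 RPKM in CK1a_OV and 31.2 and 31.1 RPKM in OV_control, and the shares of Lef1 (2.80% ± 0.0707 in CK1a_OV and 2.88% ± 0.269 in OV_control) and Tcf7l2 (6.92% ± 0.134 in CK1a_OV and 6.91% ± 0.212 in OV_control) were within their spread. Those of the other two did not overlap: Tcf7l1 had 10.1% and 10.7% in CK1a_OV and 12.7% and 11.6% in OV_control, and Tcf7 had 80.2% and 79.5% in CK1a_OV and 77.5% and 78.6% in OV_control, with no test.

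**Figure D3:**
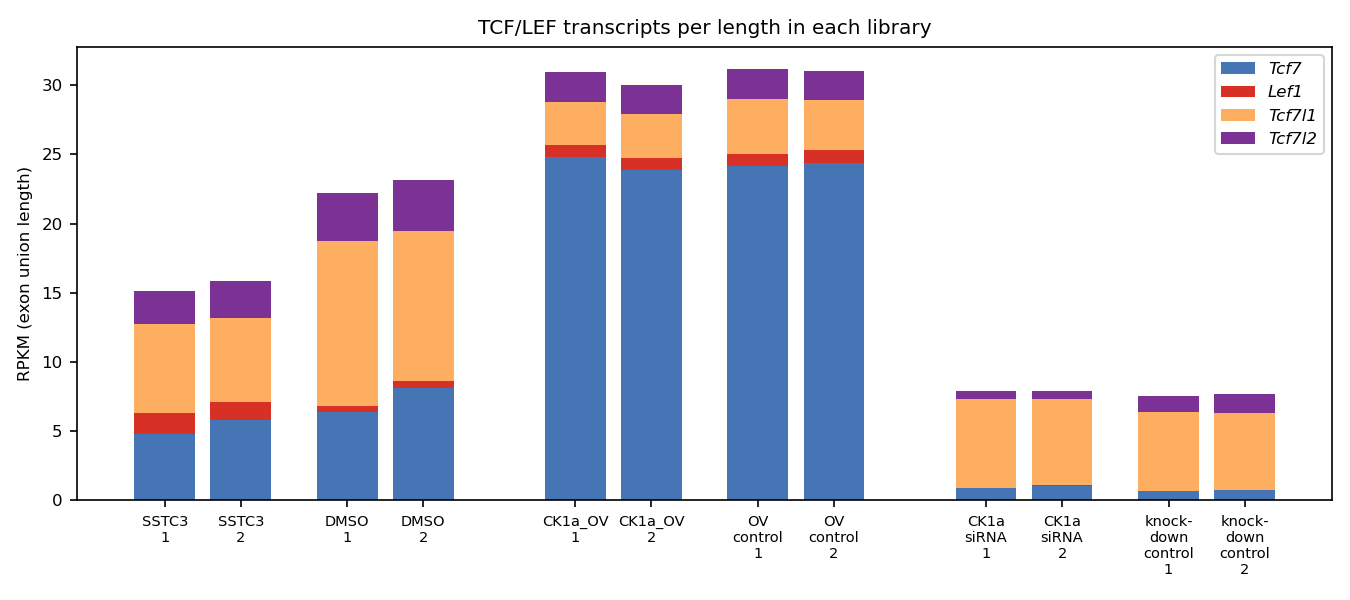
RPKM by exon union length of the 4 TCF/LEF factors (vertical axis, linear, from 0), stacked in each of the 12 libraries, by group and replicate. Tcf7 fills most of the bars of the overexpression set and Tcf7l1 most of those of the knockdown set. SSTC3 bars reach 15.2 and 15.8 RPKM with a wider Lef1 band, and DMSO bars 22.1 and 23.2 RPKM.

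Genes that share exonic bases on the opposite strand could add reads, as the strand setting of the counting is not given in the sources used here. For Lef1, 13.7% of exonic bases are shared with Gm43352, which had 0 to 6 counts in any library. For Tcf7l1, 4.6% are shared with Gm15401, with 0 to 5 counts, and for Axin2, 3.8% with Gm11670, with 0 counts in all 12.

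The rest of the Wnt pathway was read from 5 further lists, chosen with earlier results of these data known. Their counts and medians are therefore descriptions and not independent of these data. With SSTC3, the list of other reported beta-catenin targets moved upwards more than it did downwards: of 36 genes 22 were tested, 13 rose, 5 fell and 4 were not called, with a median log2 fold change of 1.02 against 0.01 for all genes tested, of which 27.1% were called higher and 26.5% lower. Jun, an AP-1 subunit, averaged 705 ± 2.83 CPM with SSTC3 and 14.6 ± 2.88 CPM with DMSO, Fosl1, another AP-1 subunit, 364 ± 0.900 CPM with SSTC3 and 35.5 ± 0.142 CPM with DMSO, and Myc, a growth regulator, 76.9 ± 0.325 CPM with SSTC3 and 3.63 ± 0.0733 CPM with DMSO (SD, n = 2). Their log2 fold changes were 5.65 ± 0.06, 3.42 ± 0.05 and 4.46 ± 0.11 (SE, edgeR adjusted p = 9.8e-166, 1.14e-159 and 5.57e-112). All 3 are also growth factor and stress response genes. Cyclin D1 (Ccnd1), named after its values were seen, averaged 43.3 ± 2.43 CPM with SSTC3 and 21.3 ± 0.441 CPM with DMSO (log2 fold change 1.08 ± 0.09, edgeR adjusted p = 4.41e-26).

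The other 4 lists had medians slightly below 0 with SSTC3, none lower than −0.22, and their counts stand beside the same 27.1% higher and 26.5% lower of all genes. Of 20 TCF cofactors and corepressors, 4 rose, 11 fell and 5 were not called (median −0.14). The beta-catenin cofactor Bcl9l averaged 93.7 ± 3.03 CPM with SSTC3 and 235 ± 4.33 CPM with DMSO (log2 fold change −1.27 ± 0.05, edgeR adjusted p = 6.87e-74), and its relative Bcl9 (−0.70 ± 0.07) and the corepressor Tle2 (−0.90 ± 0.11) also fell. Of the 12 genes of the destruction complex, 1 rose, 8 fell and 3 were not called (median −0.17). The scaffolds Axin1 and Apc both fell by 0.38 ± 0.05 and Amer1, which recruits the complex to the membrane, fell by 0.67 ± 0.11 on the log2 scale.

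Of 24 Wnt receptors and signal carriers 20 were tested, 3 rose, 9 fell and 8 were not called with SSTC3 (median −0.22). The receptor Fzd2 averaged 70.2 ± 0.375 CPM with SSTC3 and 196 ± 3.64 CPM with DMSO (log2 fold change −1.42 ± 0.05, edgeR adjusted p = 1.18e-76), and Fzd5 26.5 ± 1.82 CPM with SSTC3 and 6.28 ± 1.32 CPM with DMSO (2.13 ± 0.13, edgeR adjusted p = 2.82e-40). The R-spondin receptor Lgr4 fell by 0.85 ± 0.07 on the log2 scale. Of 20 genes listed as secreted and cell-surface Wnt antagonists 9 were tested, 2 rose, 2 fell and 5 were not called (median −0.15). The list also holds Dact1, Dact2 and Dact3, which act inside the cell. Sfrp2, a secreted Wnt-binding protein, fell by 0.92 ± 0.09 and Dact3 by 0.61 ± 0.09, and Apcdd1, a membrane inhibitor, rose by 0.47 ± 0.13.

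In CK1a_OV against OV_control, where 5.78% of all genes were called higher and 7.57% lower, the called genes of these lists moved by small amounts. Of 18 tested cofactors 1 rose (Crebbp, a histone acetyltransferase, 0.21 ± 0.05) and 2 fell (Bcl9l, −0.20 ± 0.04, and the deacetylase Hdac1, −0.16 ± 0.03). Of the 12 genes of the destruction complex 0 rose and 2 fell, Apc2 (−0.33 ± 0.10) and Ctnnb1, which encodes beta-catenin (−0.09 ± 0.03, edgeR adjusted p = 0.0417). Of 19 tested receptors and carriers 1 rose (the signal carrier Dvl2, 0.23 ± 0.06) and 2 fell (the receptors Fzd7, −0.32 ± 0.04, and Fzd5, −0.36 ± 0.07), and none of the 6 tested antagonists was called. Of 20 other targets 2 rose and 4 fell. The receptor kinase Met fell by 0.32 ± 0.05 and the matricellular gene Ccn5 by 0.48 ± 0.08, while Myc rose by 0.11 ± 0.03.

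In CK1a_siRNA against knockdown_control, cofactors and corepressors rose more often than they fell: 11 of 18 rose, 2 fell and 5 were not called, with a median log2 fold change of 0.29 against −0.01 for all genes tested. Of all genes, 28.3% were called higher and 26.4% lower, which applies to the other lists of this comparison too. The kinase Hipk2 averaged 77.4 ± 3.84 CPM in CK1a_siRNA and 22.1 ± 2.82 CPM in knockdown_control (log2 fold change 1.84 ± 0.08, edgeR adjusted p = 1.45e-28), and the beta-catenin cofactor Pygo2 rose by 0.51 ± 0.06. The corepressor Ctbp1 rose by 0.28 ± 0.04. In the destruction complex, Csnk1a1 included, 4 of 12 rose, 5 fell and 3 were not called. Axin1 averaged 111 ± 0.386 CPM in CK1a_siRNA and 50.6 ± 4.64 CPM in knockdown_control (1.17 ± 0.07, edgeR adjusted p = 3.12e-24), and Ctnnb1 averaged 401 ± 4.09 CPM in CK1a_siRNA and 610 ± 9.02 CPM in knockdown_control (−0.57 ± 0.04, edgeR adjusted p = 4.97e-19).

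Of 24 receptors and carriers 12 were tested in the knockdown set, 4 rose, 3 fell and 5 were not called. The receptor Fzd4 fell by 1.07 ± 0.08 on the log2 scale, and the R-spondin receptors Lgr6 and Lgr4 rose by 1.33 ± 0.15 and 0.76 ± 0.08. Of 4 tested genes of the antagonist list 0 rose and 2 fell, the intracellular Dact3 (−0.90 ± 0.10) and Kremen1, a Dickkopf receptor (−0.27 ± 0.07). Of 18 tested other targets 8 rose, 7 fell and 3 were not called, with a median of 0.08. Jun averaged 86.2 ± 1.68 CPM in CK1a_siRNA and 363 ± 4.47 CPM in knockdown_control (−2.04 ± 0.05), and Myc 425 ± 1.55 CPM in CK1a_siRNA and 961 ± 9.52 CPM in knockdown_control (−1.14 ± 0.04). The adhesion receptor Cd44 rose by 1.00 ± 0.04.

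**Figure D4:**
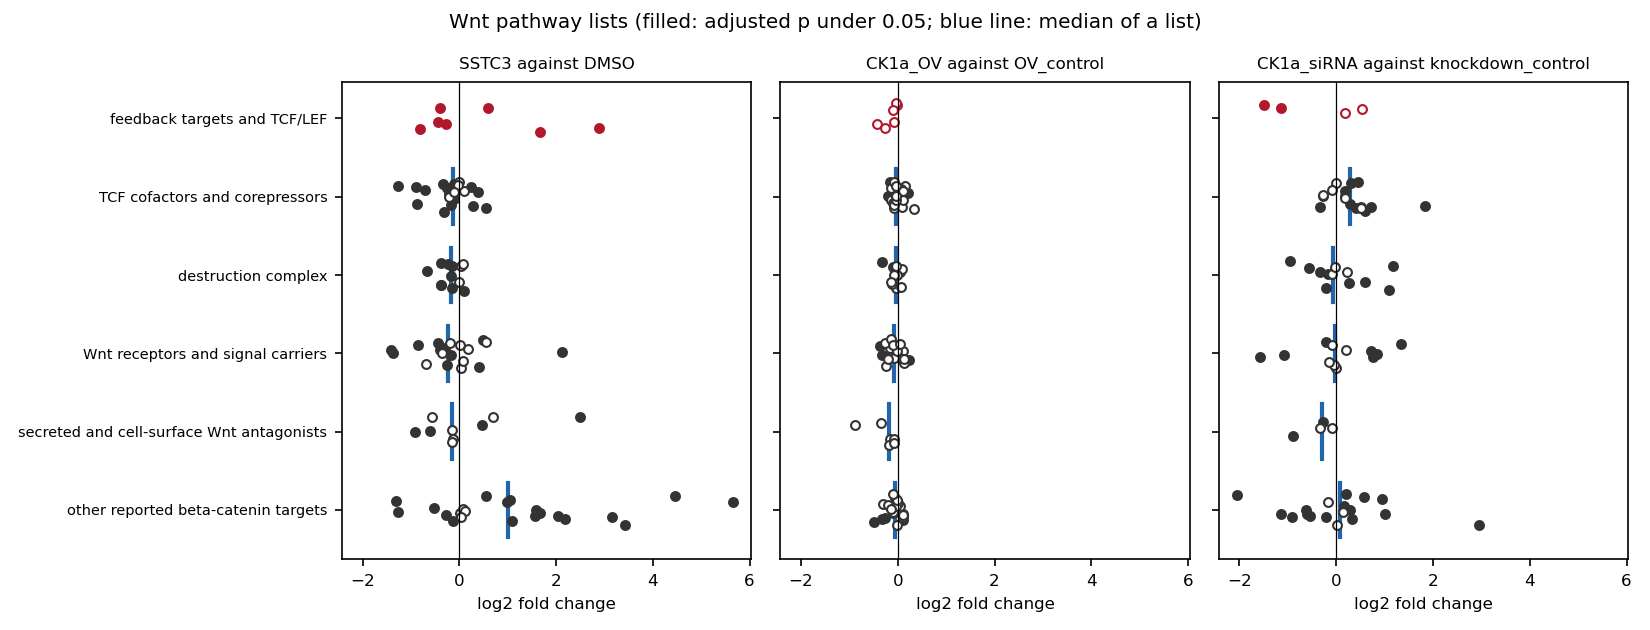
Log2 fold change (horizontal axis) of every tested gene of the 9 feedback and TCF/LEF genes (red) and of the 5 other Wnt lists (dark) in the 3 comparisons. Each point is a gene, filled where the adjusted p is under 0.05, and the blue line is the median of each of the 5 lists. The other reported targets spread furthest with SSTC3, up to 5.65 for Jun with a median of 1.02, and the CK1a_OV points stay close to 0.

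The genes whose pattern was most like that of Axin2 were found by Pearson's r of log2(CPM + 1) over the 12 libraries, centred within each comparison, among 9163 genes with at least 4 CPM on average in each comparison. Ethe1, a mitochondrial sulfur dioxygenase, was first (r = 0.94), followed by Rpl10a-ps1, Sept11, Mindy3 and Trim26 (r = 0.93 each). Their log2 fold changes with SSTC3 were 0.42, 0.77, 0.25, 0.32 and 0.53 in this order, all smaller than the 2.88 of Axin2. These r values were taken over 12 libraries that share 6 groups, and Axin2 itself had 0 to 41 counts in them. It had 0 counts in every library of the knockdown set, so its pattern is flat there and comes from the other libraries. A gene that varied in the knockdown set was thereby ranked lower, and the r values are given as a description.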

How the data were processed

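RNA was read as whole-number counts per gene in 12 libraries. Per the submitters' processing notes, HISAT2 and featureCounts were used with mm10. The deposited counts are unscaled. What versions, strand setting and annotation they used is not given in the sources used here. Symbols and coordinates come from GENCODE M21 (mm10). There 37 of the 54532 features listed for the SSTC3 and knockdown sets had no symbol, and 260 of the 55401 listed for the overexpression set. All 9 genes and the other lists were chosen with earlier results of these data known, and Tiki1 had no match.

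Each comparison was fitted on its own 4 libraries with edgeR 4.0.16 (R 4.3.3): filterByExpr, TMM factors, robust quasi-likelihood F test, two-sided, Benjamini-Hochberg over all genes tested, threshold 0.05. The SE was obtained as the size of the log2 fold change over the square root of its F value. Genes tested numbered 14151 (SSTC3), 13958 (CK1a_OV) and 14832 (CK1a_siRNA), with a common BCV, edgeR's measure of the spread between replicates, of 0.0341, 0.0396 and 0.0431. Differences between effects are contrasts in a single fit of all 12 libraries (17105 genes). CPM values use library totals of 16063627 to 19427506 counts, and RPKM also divides by exon union length, so that levels of different genes are compared per length. Counts of 0 were given a floor of 3 counts per library, for counting error only.

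Libraries of a group differed by more than sampling noise (chi-square per degree of freedom 2.29 to 3.61), so none was treated as a copy. Genes of the other lists were named by smallest adjusted p among called genes with a mean of 4 CPM or more, up to 3 per list and comparison. Alternatives were RLE factors, library totals, DESeq2 1.42.0, no filter on low counts, a filter of 1 CPM or more in 2 libraries, a fit of all 12 libraries, a replicate block and leaving out each library. The scripts were tested on simulated data.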

Additional observations from a re-analysis of the deposited data

Results flagged for a closer look

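These genes stand out because the effect of 1 comparison differed from that of another in a test of the difference itself (edgeR contrasts over all 12 libraries). For SSTC3 minus CK1a_OV the differences in log2 fold change were 3.30 for Axin2, 1.74 for Lef1, −0.39 for Tcf7, −0.54 for Tcf7l1 and −0.40 for Tcf7l2. Axin2 met the level set for this reading in the SSTC3 set only through the SSTC3 libraries, and its difference ran from 2.59 to 4.76 with 1 library left out. Each SSTC3 library lay beyond both DMSO libraries in all 5 genes, and of these 5 only Tcf7l1 had CK1a_OV libraries that did not overlap with OV_control. The 5 genes were picked by a test of these same libraries, so their separation is no separate evidence. The share of all genes separated in this way was not counted. For SSTC3 minus CK1a_siRNA they were −0.90 for Tcf7, −0.97 for Tcf7l1 and 0.74 for Tcf7l2. For CK1a_siRNA minus CK1a_OV they were 0.43 for Tcf7l1 and −1.14 for Tcf7l2. The cell sets differ between comparisons, so cell set and treatment cannot be told apart in these differences.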

How the results depend on the processing

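Of the values of single genes under the alternatives, 313 kept their direction and their side of the threshold, 23 kept their direction without passing and 3 changed sign, all in CK1a_OV against OV_control where none of the 9 was called: Tcf7 was 0.00 with library totals and 0.02 without CK1a_OV replicate 2, and Lef1 was 0.01 without OV_control replicate 2 (and −0.17 without OV_control replicate 1). This tally takes in only genes tested in the main fit and values with an adjusted p. For differences it takes in only genes that meet the limit of 1 CPM. Calls gained outside it are not counted, such as Lef1 in CK1a_siRNA in the fit of all 12 libraries (edgeR adjusted p = 0.0421). With 1 library left out, the lone library of its group is assumed to vary like the others. In that way SSTC3 against DMSO gave 6125 to 6718 genes called (7579 with all libraries) and 6 to 7 of the 9 genes, and CK1a_siRNA against knockdown_control gave 6629 to 7562 (8113) and 2 of the 9. CK1a_OV against OV_control gave 1065 to 1478 (1863), with 1065 without OV_control replicate 1 and 1220 without OV_control replicate 2, and 0 of the 9. The same comparison gave 519 genes called with DESeq2 and 1188 with all 12 libraries, and the cause was not tested.

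Of the 9 genes, differences between SSTC3 and CK1a_OV were called in 5, beside 32.7% of all genes, in 3 with DESeq2 and in a varying number with 1 library left out. They were called in 3 without SSTC3 replicate 1, CK1a_OV replicate 1 or OV_control replicate 1, where Tcf7 and Tcf7l2 were lost. Both were also lost without DMSO replicate 2, where another of the 9 genes was called, and Tcf7l2 without CK1a_OV replicate 2 or OV_control replicate 2. Between SSTC3 and CK1a_siRNA they were called in 4, beside 45.1% of all genes. Rnf43 is among these 4, but its counts in the SSTC3 set were too low for its difference to be read. Between CK1a_siRNA and CK1a_OV they were called in 2, beside 35.1% of all genes, in 1 with DESeq2 and in a varying number with 1 library left out. They were called in 1 without CK1a_OV replicate 1, OV_control replicate 1, CK1a_siRNA replicate 1 or knockdown_control replicate 2, where Tcf7l1 was lost. A replicate block gave 7303 (SSTC3), 1768 (CK1a_OV) and 8066 (CK1a_siRNA) genes called and changed no call among the 9 genes. Libraries with the same replicate number showed no common deviation (correlations of −0.06, −0.02 and −0.04). With 2 libraries per group this cannot show whether they shared a culture or handling, and no label pairs them. Depth limits Axin2, Nkd1 and Rnf43 most, whose counts in the SSTC3 set ran from 0 to 27.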
